A study of Rattus norvegicus with 6 samples.

Results

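The genes described here are 10 rat genes of the routes that metabolise arachidonic acid without cyclooxygenase, namely Cyp4a1, Cyp4a2, Cyp4a3, Cyp4a8, Cyp4f1, Cyp2c23, Cyp2j4, Ephx2, Pla2g4a and Alox5. They were chosen by symbol, and every non-control probe whose accession maps to one of these symbols was taken, which gave 16 of 61537 probes. Renal cortex RNA was measured in 6 male Sprague-Dawley (Crl:CD(SD)) rats, bought at 5 weeks of age, 1 one-colour array per animal. The phenylbutazone group was 3 rats dosed with 200 mg/kg/day of phenylbutazone, which blocks the cyclooxygenase route, for 4 weeks, and the vehicle group was 3 rats given corn oil over the same 4 weeks. All 6 had the same basal diet.

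Arachidonic acid is held in membrane phospholipids and is released by phospholipases A2, of which the cytosolic enzyme encoded by Pla2g4a prefers this fatty acid. Besides the cyclooxygenases, cytochromes P450 of the CYP4A and CYP4F families hydroxylate it at its omega end to a hydroxy acid (HETE) that constricts renal arterioles and inhibits tubular sodium transport, and epoxygenases of the CYP2C and CYP2J families turn it into epoxyeicosatrienoic acids (EETs), which dilate vessels and also act on tubular transport. Soluble epoxide hydrolase, encoded by Ephx2, converts EETs to less active diols, and the lipoxygenase encoded by Alox5 starts the leukotriene route, mainly in leukocytes. In the kidney cortex the CYP4A enzymes are concentrated in the proximal tubule and are known targets of the nuclear receptor PPAR alpha.

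No spot was saturated, the arrays had 65.2% to 68.4% of their probes well above background, and their 75th percentiles of intensity were 891.2 to 1002.6. Vehicle arrays 1 and 2 were on slide 1, and the 3 phenylbutazone arrays and vehicle array 3 were on slide 2, scanned on another day. Vehicle 3 stood apart from its group, with a root-mean-square log2 difference of 0.596 from vehicle 1 and 0.580 from vehicle 2 over the 41006 probes tested, whereas vehicle 1 and 2 differed by 0.436 and the phenylbutazone arrays by 0.429 to 0.482 from each other. It was no closer to the phenylbutazone arrays of its own slide (0.528 to 0.575) than vehicle 1 and 2 were from the other slide (0.511 to 0.530). Vehicle 3 was the highest of the 6 arrays for 5 of the 15 tested probes of these genes and the lowest for 4, so the differences below are also given without it and, on slide 2 alone, against it as the only vehicle array. The label is renal cortex. Well above background were markers of the proximal convoluted tubule (10 of 10), the proximal straight tubule (8 of 8), the thick ascending limb (5 of 5) and podocytes (7 of 7). Because 6 of 6 markers of the collecting duct and medulla were also measured, detection alone does not tell cortex from whole kidney. In whole tissue, fewer cells of a type and less RNA per cell cannot be told apart.

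None of the oxygenase, hydrolase and lipase probes passed the test between phenylbutazone and vehicle. With limma and Benjamini-Hochberg adjustment over all probes, 0 of the 15 tested probes had an adjusted p under 0.05, against 0% of all 41006 probes, and 0 of 15 had an unadjusted p under 0.05, against 11.2% of all probes. The unadjusted count was 4 of 15 with slide as a fixed block, against 32.1% of all probes, 3 of 15 on slide 2 alone, against 27.7%, and 3 of 15 without phenylbutazone 1, against 9.4%. With slide as a fixed block the 4 were Cyp4a2 probe A_44_P147020 (log2 difference -0.49), Cyp4f1 (0.51) and Cyp4a8 probes A_42_P735495 (-0.32) and A_64_P040994 (0.51). These Cyp4a8 probes thus had opposite signs. The same probes, except that of Cyp4f1, made up the count on slide 2 alone. Without phenylbutazone 1 the count was made up of both Cyp4a1 probes (0.39 and 0.46) and that of Ephx2 (-2.57). The adjusted count stayed at 0 of 15 without vehicle 3, where 2.54% of all probes passed, with background correction by normexp, where 0.00488% passed, and with quantile normalization, an intensity trend or slide as a random block, where 0.00244% passed each time. The groups did not overlap for 1 of the 15 probes, that of Cyp2c23, against 20.3% of all probes. Of the 15 probes 10 stood higher and 5 lower in phenylbutazone, with a median log2 difference of 0.11, against 0.0093 for all probes. These counts give genes with several probes more weight. By the brightest probe of each gene the median of the 9 genes was 0.011, that of Cyp4a2, against 0.039 for all named genes. The 15 probes cover 9 genes, 4 of them with more than 1 probe, and the probe of Alox5 was not tested because it was well above background on 0 of 6 arrays. Levels are given as log2 units relative to the 75th percentile of the array, so that 1 unit is a doubling, and levels of different probes cannot be compared with each other. Differences are phenylbutazone minus vehicle on that log2 scale. For probes they carry the limma standard error (n = 3 per group) and the 95% interval.

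**Figure D1:**
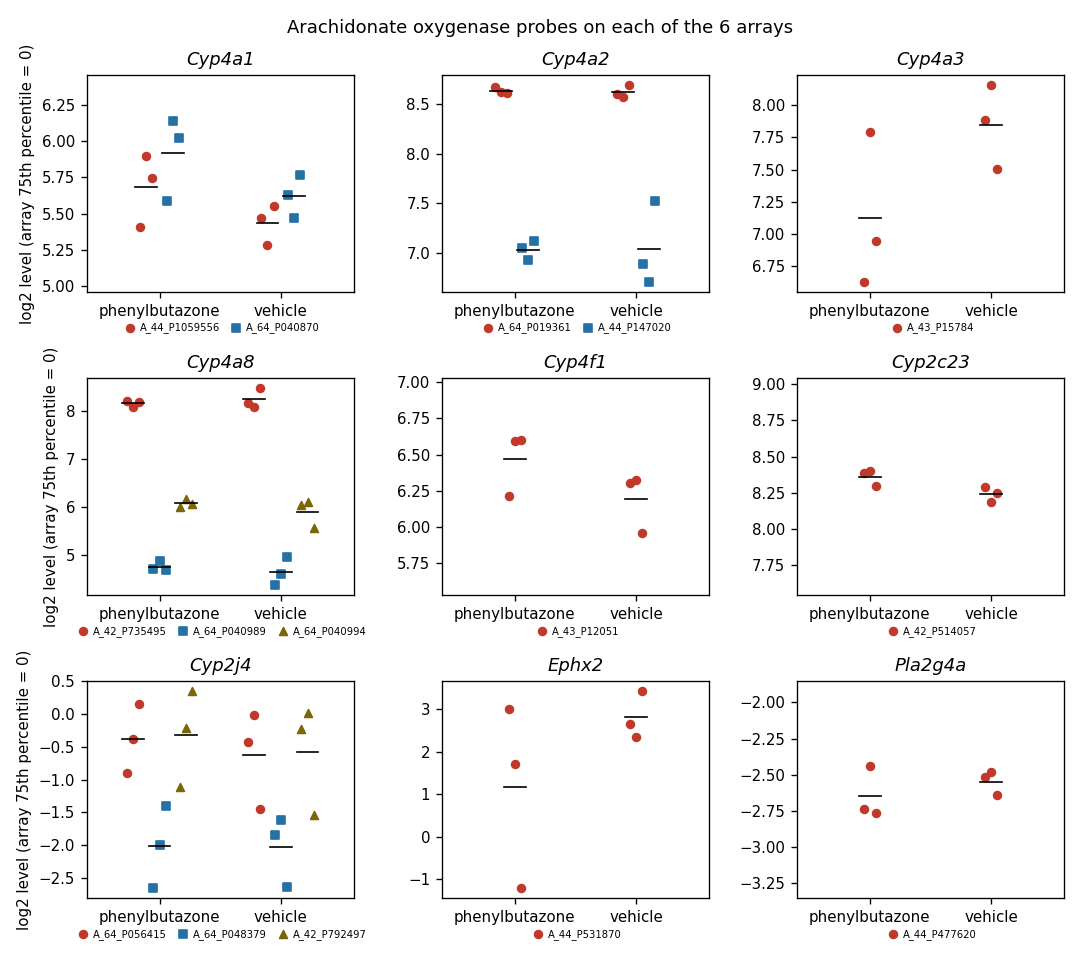
Log2 level of each tested probe (0 is the 75th percentile of the array) on each of the 3 phenylbutazone arrays and 3 vehicle arrays, in 1 panel per gene, with colour and marker for the probe and a black bar for the group mean. Ephx2 spreads over 4.66 log2 units and the 3 Cyp2j4 probes over more than 1 unit within each group, while Cyp2c23 stays within 0.21 units and is the only gene whose groups do not overlap.

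The omega-hydroxylase gene Cyp4a3 had the lowest unadjusted p of these genes. It stood at 6.63, 7.79 and 6.95 on phenylbutazone arrays 1, 2 and 3, against 7.89, 8.16 and 7.50 on vehicle arrays 1, 2 and 3. Phenylbutazone 1 and 3 lay below every vehicle array, while phenylbutazone 2 lay above vehicle 3, so that the groups overlapped. The difference was -0.73 ± 0.33, a 1.65-fold lower mean in phenylbutazone, with an interval of -1.52 to 0.07 (limma adjusted p = 0.478, unadjusted 0.0674). It was -0.90 without vehicle 3, -0.38 on slide 2 alone, and between -1.06 and -0.48 when any single array was left out.

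Cyp4a2, the closest paralog of Cyp4a3 among these genes, gave no such difference. Its brighter probe, A_64_P019361, stood at 8.67, 8.62 and 8.61 on phenylbutazone arrays 1, 2 and 3, against 8.60, 8.58 and 8.70 on the vehicle arrays. The difference was 0.011 ± 0.091, with an interval of -0.21 to 0.23, so that the interval holds group means between 1.17-fold higher and 0.864 times the vehicle level. The second probe, A_44_P147020, stood at 7.04, 6.93 and 7.12 on the phenylbutazone arrays, against 6.89, 6.70 and 7.52 on the vehicle arrays, a difference of -0.0067 ± 0.22. Its interval was wider, -0.54 to 0.53, which holds group means between 0.687 and 1.44 times the vehicle level. The SD among vehicle arrays was 0.063 for the first probe and 0.43 for the second, which was highest in vehicle 3. Without vehicle 3 the second probe differed by 0.24 (limma adjusted p = 0.259) and on slide 2 alone by -0.49.

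The promoters of this pair are shown because they are nearly the same, with estimates of 0.011 (brighter Cyp4a2 probe) and -0.73 (Cyp4a3). The interval of Cyp4a3, -1.52 to 0.07, holds the Cyp4a2 estimate, and the groups overlapped for the ratio of the pair given below. An unlike response of these genes was thus not established. The windows from 250 bases before to 50 bases after each gene start (RefSeq, build GRCr8, all on chromosome 5, minus strand) share 284 identical bases in a global alignment, with 11 mismatches and 10 gap positions. The Cyp4a8 window shares 174 identical bases with that of Cyp4a2 and 173 with that of Cyp4a3, against 139 to 163 for the 25 pairs that are not within the Cyp4a family, among the 8 genes with a window. The motif AGGTCA, the half-site bound by PPAR and other nuclear receptors, was searched on both strands and is in capitals. It begins 105 bases before the start in both Cyp4a2 and Cyp4a3, has no match in the Cyp4a8 window, and occurs in 16.2% of 33469 RefSeq promoter windows of this length.
Cyp4a2, chr5:134170859-134171158: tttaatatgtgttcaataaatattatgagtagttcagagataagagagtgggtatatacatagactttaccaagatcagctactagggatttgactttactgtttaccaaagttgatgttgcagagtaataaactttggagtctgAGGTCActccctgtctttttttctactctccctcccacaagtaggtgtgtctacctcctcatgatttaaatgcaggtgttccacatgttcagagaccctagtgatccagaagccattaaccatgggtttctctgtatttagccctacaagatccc
Cyp4a3, chr5:134352187-134352486: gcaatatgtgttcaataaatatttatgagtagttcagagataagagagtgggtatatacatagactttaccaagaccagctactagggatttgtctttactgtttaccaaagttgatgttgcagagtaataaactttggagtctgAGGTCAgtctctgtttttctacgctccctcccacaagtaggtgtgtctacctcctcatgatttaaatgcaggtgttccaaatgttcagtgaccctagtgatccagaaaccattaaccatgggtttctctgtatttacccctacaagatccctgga
Cyp4a8, chr5:133970177-133970476: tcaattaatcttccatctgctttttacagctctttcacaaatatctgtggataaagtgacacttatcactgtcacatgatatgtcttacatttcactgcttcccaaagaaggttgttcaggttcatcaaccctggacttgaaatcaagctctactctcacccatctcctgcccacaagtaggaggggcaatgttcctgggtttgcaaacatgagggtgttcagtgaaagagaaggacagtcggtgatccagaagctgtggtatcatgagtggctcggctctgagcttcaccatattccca
A direct repeat of AGGTCA with 1 base of any kind between the copies, also searched on both strands, had no match in any of the 8 windows and is found in 0.0538% of all windows. A match is a description of the letters only. Because Cyp4a2 and Cyp4a3 are close paralogs, signal of one transcript on the probe of the other cannot be left out of account, and the probe sequences were not used here.

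Cyp4a1, the third member of the family and in rat the classical fibrate-induced omega-hydroxylase, had slightly higher means in phenylbutazone on both probes. Probe A_64_P040870 stood at 5.59, 6.14 and 6.03 on the phenylbutazone arrays, against 5.63, 5.47 and 5.77 on the vehicle arrays. Phenylbutazone 2 and 3 lay above every vehicle array, and phenylbutazone 1 lay within the vehicle range. The difference was 0.30 ± 0.17 (interval -0.13 to 0.72, limma adjusted p = 0.567), and that of probe A_44_P1059556 was 0.25 ± 0.16 (interval -0.13 to 0.64, adjusted p = 0.589). On slide 2 alone the values were 0.15 and 0.14.

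The 3 probes of Cyp4a8, a further omega-hydroxylase gene, gave differences of unlike sign and disagreed on vehicle 3. A_42_P735495 stood at 8.23, 8.10 and 8.19 on the phenylbutazone arrays, against 8.18, 8.10 and 8.49 on the vehicle arrays, a difference of -0.087 ± 0.13. A_64_P040989 stood at 4.71, 4.88 and 4.69, against 4.37, 4.62 and 4.96 on the vehicle arrays, a difference of 0.11 ± 0.17. A_64_P040994 stood at 6.003, 6.17 and 6.07, against 6.04, 6.10 and 5.58 on the vehicle arrays, a difference of 0.17 ± 0.16. Vehicle 3 was thus the highest array for the first and second of these probes and the lowest for the third, so the probes do not give 1 ordering of the animals, and limma adjusted p values were 0.720 to 0.835.

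Cyp4f1, which encodes an omega-hydroxylase of the CYP4F family, stood at 6.21, 6.59 and 6.60 on the phenylbutazone arrays, against 6.30, 6.32 and 5.96 on the vehicle arrays. Phenylbutazone 2 and 3 lay above all vehicle arrays, phenylbutazone 1 did not. The difference was 0.27 ± 0.16 (interval -0.12 to 0.67, limma adjusted p = 0.572), 0.16 without vehicle 3 and 0.51 on slide 2 alone.

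**Figure D2:**
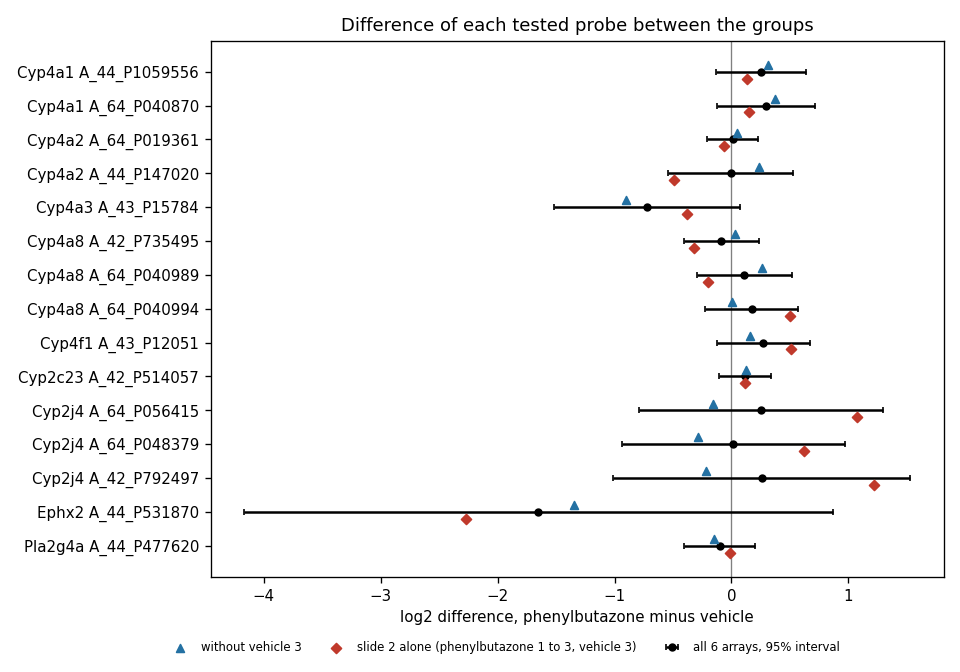
Log2 difference between phenylbutazone and vehicle for each of the 15 tested probes, with black points and bars for the limma estimate and 95% interval over all 6 arrays, blue triangles for the value without vehicle 3 and red diamonds for the value on slide 2 alone. Every 95% interval crosses 0, and the intervals of Ephx2 (-4.17 to 0.87) and Cyp2j4 are the widest.

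Cyp2c23, which encodes the main arachidonate epoxygenase of the rat kidney, was the steadiest of the single-probe genes. It stood at 8.38, 8.40 and 8.30 on phenylbutazone arrays 1, 2 and 3, against 8.29, 8.19 and 8.25 on the vehicle arrays. Every phenylbutazone array lay above every vehicle array, although phenylbutazone 3 and vehicle 1 were nearly level. The difference was 0.12 ± 0.092, a 1.09-fold higher mean in phenylbutazone (interval -0.10 to 0.34, limma adjusted p = 0.657). It was 0.12 without vehicle 3 and 0.11 on slide 2 alone, but -0.014 under quantile normalization, so the direction depends on the scaling.

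Cyp2j4, which encodes the other epoxygenase, differed more between animals than between groups. Its probe A_42_P792497 stood at -1.11, -0.22 and 0.35 on phenylbutazone arrays 1, 2 and 3, against -0.22, 0.01 and -1.55 on vehicle arrays 1, 2 and 3, a 3.73-fold span over the 6 animals. The other probes, A_64_P056415 and A_64_P048379, had phenylbutazone 1 and vehicle 3 as their lowest arrays and phenylbutazone 3 as their highest as well. The differences were 0.26 ± 0.52, 0.26 ± 0.43 and 0.015 ± 0.39, with limma adjusted p values of 0.850 to 0.993. They turned to -0.22, -0.16 and -0.29 without vehicle 3 and stood at 1.22, 1.08 and 0.62 on slide 2 alone, so that the direction turned with this array. They also turned without phenylbutazone 3, to -0.079, -0.012 and -0.29.

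The arrays low for Cyp2j4 also had the lowest scores of markers of the proximal straight tubule, the last part of the proximal tubule, although not every marker was low there. The score of the 8 markers, which include Cyp2e1 of the oxygenase list below, is the mean log2 deviation from their own means and was -0.93, 0.30 and 0.75 on phenylbutazone arrays 1, 2 and 3, against 0.21, 0.26 and -0.58 on the vehicle arrays. Their summed level was 8.85 to 9.36 in phenylbutazone, against 9.20 to 9.31 in vehicle, in log2 units, none was at background, and 0 of 8 had an unadjusted p under 0.05. On phenylbutazone 1 all 8 markers lay below their own means, while on vehicle 3 only 6 did: Acy3, at 8.31, was the highest there of the 6 arrays, and Cyp2e1, at 6.43, was also above its mean. The transporter genes Slc7a13, Slco1a6 and Slc22a7 varied most, with limma standard errors of 1.12, 1.00 and 1.01, against 0.16 to 0.21 for the other 5, and weigh most in the score. The scores of the 10 proximal convoluted tubule markers lay between -0.021 and 0.11 in phenylbutazone, against -0.078 to 0.025 in vehicle. The part of straight tubule RNA in the Cyp2j4 values was not tested.

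**Figure D3:**
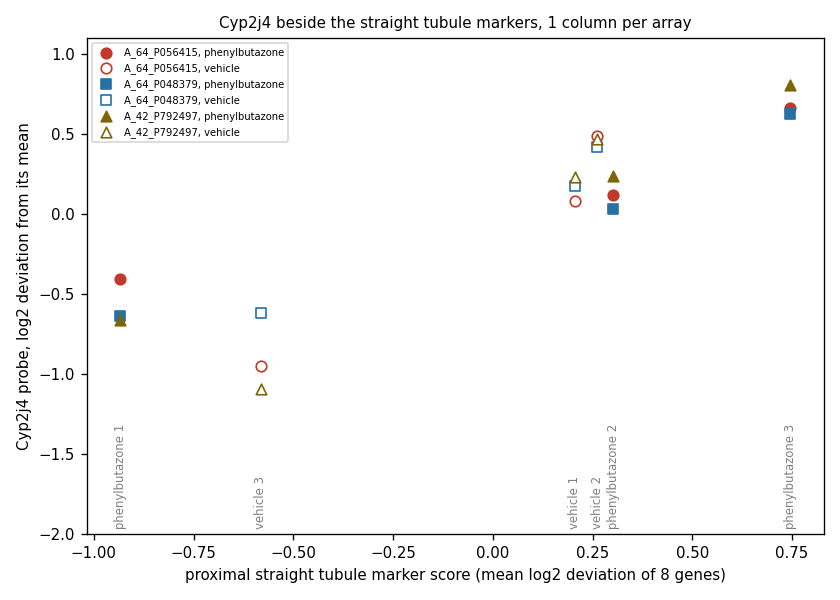
Log2 deviation of each Cyp2j4 probe from its own mean (vertical) against the mean log2 deviation of 8 proximal straight tubule markers (horizontal), with 1 column of 3 points per array, filled for phenylbutazone and open for vehicle. Phenylbutazone 1 (score -0.93) and vehicle 3 (score -0.58) are low on both axes and phenylbutazone 3 (score 0.75) is high on both.

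Ephx2, the soluble epoxide hydrolase gene, showed by far the widest spread of these genes. Its processed intensity was 7183, 3142 and 417 on phenylbutazone arrays 1, 2 and 3, against 6011, 5142 and 9959 on vehicle arrays 1, 2 and 3. The level was 3.01, 1.71 and -1.22 in phenylbutazone, against 2.66, 2.36 and 3.43 in vehicle, in log2 units. Phenylbutazone 2 and 3 lay below every vehicle animal, while phenylbutazone 1 lay above vehicle 1 and 2. The scanner's own error for the lowest spot, that of phenylbutazone 3, was 41.9 intensity units, and the spot was well above background with no outlier mark.

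The mean of Ephx2 was 3.14-fold lower in phenylbutazone, a difference of -1.65 ± 1.04 with an interval of -4.17 to 0.87 (limma adjusted p = 0.589). It stood at -0.46 without phenylbutazone 3, -1.34 without vehicle 3 and -2.27 on slide 2 alone. The 3 phenylbutazone animals spanned 18.8-fold, and 73 of the 41006 tested probes, 0.178%, had a wider span in that group. The SD was 2.17 in phenylbutazone and 0.55 in vehicle. Most of the difference was thus lost without 1 animal, and a single probe measured this gene. The proximal convoluted tubule score was 0.11, 0.016 and -0.021 on phenylbutazone arrays 1, 2 and 3. On vehicle arrays 1, 2 and 3 it was -0.056, -0.078 and 0.025. The straight tubule score was -0.93, 0.30 and 0.75 in phenylbutazone, against 0.21, 0.26 and -0.58 in vehicle. Vehicle 3 and phenylbutazone 1, the arrays highest for Ephx2, had the lowest straight tubule scores, and phenylbutazone 3 had the highest. The part of these segments in the Ephx2 values was not tested.

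Pla2g4a, the cytosolic phospholipase A2 gene, stood at -2.74, -2.44 and -2.77 on the phenylbutazone arrays, against -2.52, -2.48 and -2.64 on the vehicle arrays. The groups overlapped, with phenylbutazone 2 the highest array of all. The difference was -0.10 ± 0.13 (interval -0.41 to 0.20, limma adjusted p = 0.791). Alox5 was not well above background on any of the 3 phenylbutazone or 3 vehicle arrays, with processed intensities of 5 to 17 units, so neither a level nor a fold can be given. Among leukocyte markers, 10 of 11 macrophage genes were tested, with scores of -0.27 to 0.26 in phenylbutazone, against -0.051 to 0.0088 in vehicle. Of 7 neutrophil genes on the array 4 (S100a8, S100a9, Csf3r and Camp) had a probe well above background on all 6 arrays. Their scores were 0.085, -0.20 and 0.51 in phenylbutazone, against -0.20, 0.35 and -0.54 in vehicle. A second probe of Csf3r and one of Camp were well above background on 0 of 6 arrays. The neutrophil genes Elane and Ngp were well above background on 0 of 6 arrays. Of 7 mast cell genes Tpsab1 and Kit had a probe well above background on all 6 arrays, while Cpa3, Fcer1a, Ms4a2 and Cma1 had none on any. A second probe of Tpsab1 was well above background on 0 of 3 phenylbutazone and 1 of 3 vehicle arrays.

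The paralogs and the steps of the pathway were then compared by the log2 ratio of the brightest probe of each gene within an array. This removes any factor common to both probes and shows only unequal change. The error given with a ratio is the plain standard error from the SD of each group, not that of limma. Of 11 pairs chosen, 10 could be computed, and that of Alox5 with Pla2g4a could not. With 3 arrays against 3 the exact two-sided permutation test cannot go below p = 0.1, and after adjustment over the 10 pairs p was 0.375 to 0.8. The groups did not overlap for 1 of the 10 pairs, Cyp4a1 over Cyp4a3, where 20.3% of single probes had that property.

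The ratio of Cyp4a1 to Cyp4a3 stood at -1.04, -1.65 and -0.92 in phenylbutazone, against -2.26, -2.69 and -1.73 in vehicle. The lowest phenylbutazone ratio was just above the highest vehicle ratio, that of vehicle 3. The difference was 1.02 ± 0.36 log2 units (exact permutation p = 0.1, adjusted 0.375, n = 3 per group), 0.98 with the other Cyp4a1 probe and 0.53 on slide 2 alone. The ratio of Cyp4a2 to Cyp4a3 was 2.04, 0.83 and 1.66 in phenylbutazone, against 0.71, 0.42 and 1.19 in vehicle. Here vehicle 3 lay above phenylbutazone 2, and the difference was 0.74 ± 0.42 (exact permutation p = 0.2, adjusted 0.375, n = 3 per group).

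On slide 2 alone the difference of Cyp4a2 over Cyp4a3 was 0.32. Cyp4a3 over Cyp4a8 differed by -0.64 ± 0.49, with overlapping groups, and by -0.058 on slide 2 alone. Cyp4a1 over Cyp4a2 differed by 0.29 ± 0.19, Cyp4a1 over Cyp4a8 by 0.38 ± 0.21 and Cyp4a2 over Cyp4a8 by 0.097 ± 0.089. On slide 2 alone these were 0.21, 0.47 and 0.26, so the order of the ratios with and without Cyp4a3 was not kept there. Over all 6 arrays Cyp4a2 over Cyp4a8 ran from -0.18 to 0.097 over the 6 combinations of probes, so its sign depends on the probe. The epoxygenase Cyp2c23 over the hydrolase Ephx2, the step that makes EETs over the step that removes them, stood at 5.37, 6.69 and 9.52 in phenylbutazone, against 5.63, 5.83 and 4.81 in vehicle. The difference was 1.77 ± 1.26 (exact permutation p = 0.3, adjusted 0.375, n = 3 per group), and phenylbutazone 1 lay inside the vehicle range. The omega-hydroxylase Cyp4a2 over the epoxygenase Cyp2c23 differed by -0.11 ± 0.047, with overlapping groups (exact permutation p = 0.2, adjusted 0.375, n = 3 per group). Cyp2c23 over Cyp2j4 differed by -0.14 ± 0.67.

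**Figure D4:**
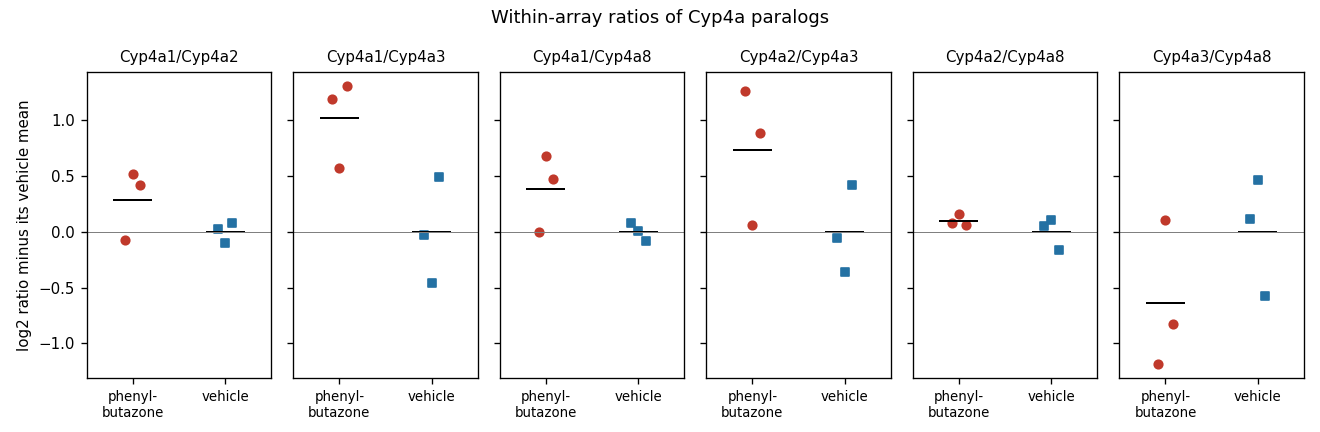
Within-array log2 ratio of each pair of Cyp4a paralogs, minus the vehicle mean of that ratio, on the 3 phenylbutazone arrays (red circles) and 3 vehicle arrays (blue squares), with a bar for the group mean. The ratio of Cyp4a1 to Cyp4a3 is the one whose groups do not overlap, with a difference of 1.02, and ratios that leave out Cyp4a3 differ by 0.38 or less over all 6 arrays, though Cyp4a1 to Cyp4a8 differs by 0.47 on slide 2 alone.

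Other genes of the pathway were taken from chosen lists, each gene by its brightest tested probe, and 0 genes of any list passed over all probes (limma) with all 6 arrays. Without vehicle 3, where 2.54% of all probes passed and treatment and slide cannot be told apart, Ephx1 and Kcnma1 passed, with limma adjusted p values of 0.0465 and 0.0361. The median difference of all 12155 named genes was 0.039, and 11.7% of them had an unadjusted p under 0.05. Among the other CYP4 and CYP2 oxygenases 12 of 21 genes on the array were tested, with 8 higher and 4 lower in phenylbutazone, a median of 0.12 and 0 at an unadjusted p under 0.05. The other 9 were too dim to test. Cyp2e1, an ethanol-metabolising P450 gene of the straight tubule, stood at -0.28 ± 0.21, Cyp2s1 at 0.36 ± 0.19 and Cyp4v3, a fatty acid hydroxylase gene, at -0.34 ± 0.26.

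Cyp2c24, another CYP2C gene, was measured on some animals of both groups and was at background in others. Probe A_64_P132261 was well above background on phenylbutazone 2 and 3, at 2.05 and 2.56, and on vehicle 3, at -1.23, but not on phenylbutazone 1, vehicle 1 or vehicle 2, where it read -7.60, -7.55 and -7.77. The second probe, A_64_P030504, was well above background on the same number of arrays, 2 of 3 and 1 of 3, at -0.45 and 0.03 in phenylbutazone 2 and 3 and -3.66 in vehicle 3. The groups overlapped, and the fitted difference of 4.52 ± 3.16 (limma adjusted p = 0.623) rests on background values and is no bound. On slide 2 alone it was 0.23.

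The P450 electron donors numbered 5, with 2 higher and 3 lower in phenylbutazone, and a median of -0.034. Por, the reductase that passes electrons to microsomal P450 enzymes, stood at 3.13, 3.43 and 3.16 in phenylbutazone, against 2.90, 3.02 and 3.51 in vehicle, a difference of 0.096 ± 0.19. Cyb5r1, a cytochrome b5 reductase gene, stood at 4.76, 5.03 and 4.88 in phenylbutazone, against 5.54, 5.59 and 5.44 in vehicle, a difference of -0.63 ± 0.11 (limma adjusted p = 0.220). All 3 phenylbutazone arrays lay below all vehicle arrays, and the value on slide 2 alone was -0.55, but its 4 probes ran from -0.63 to 0.15. Cyb5r3 stood at -0.21 ± 0.14. Ephx1, the microsomal epoxide hydrolase gene, differed by 0.28 ± 0.19, by 0.49 without vehicle 3 and by -0.14 on slide 2 alone, and the leukotriene A4 hydrolase gene Lta4h by 0.074 ± 0.092.

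Of the other lipoxygenase and leukotriene genes 14 of 20 were tested, with 9 higher and 5 lower in phenylbutazone and a median of 0.20. An unadjusted limma p under 0.05 was found for 1 of the 14, against 11.7% of all named genes. Alox15, which encodes an arachidonate lipoxygenase, stood at -1.91, -3.25 and -1.46 in phenylbutazone, against -3.90, -3.65 and -3.33 in vehicle. The groups did not overlap, and the difference was 1.42 ± 0.46 (limma adjusted p = 0.373), with 1.12 on slide 2 alone. All 7 erythrocyte markers also had higher means in phenylbutazone, with a median difference of 0.46 and scores of 0.37, -0.21 and 0.49 in phenylbutazone, against -0.37, 0.054 and -0.33 in vehicle, so that phenylbutazone 1 and 3 were the highest arrays for both. The part of blood cells in the Alox15 values was not tested. Alox5ap, whose product presents arachidonate to 5-lipoxygenase, was well above background on all 6 arrays and differed by 0.26 ± 0.16. Dpep1, a dipeptidase gene of the proximal tubule that also cleaves leukotriene D4, stood at 0.33 ± 0.15, Alox12b at -0.20 ± 0.097 and Ggt5 at -0.51 ± 0.29. The other 6 genes on the array were too dim to test.

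Of the phospholipase A2 and arachidonate supply genes 21 of 24 were tested, with 14 higher and 7 lower in phenylbutazone and a median of 0.065. An unadjusted limma p under 0.05 was found for 3 of the 21, against 11.7% of all named genes. Groups did not overlap for 7 of the 21, against 22.6% of named genes. Outside this list that held for 1 of 5 electron donors, 3 of 14 lipoxygenase and leukotriene genes and 3 of 22 PPAR alpha genes. It also held for 1 of 2 cyclooxygenases, Ptgs2. That gene was well above background on only 1 of 3 phenylbutazone arrays, so its lack of overlap rests partly on background values. Among 12 other oxygenases, 4 other epoxide hydrolases and 8 HETE and EET targets it held for 0. Pla2g2a, the secreted phospholipase gene of the acute phase, stood at -2.56, -3.54 and -2.49 in phenylbutazone, against -4.39, -4.86 and -3.75 in vehicle, a difference of 1.47 ± 0.38 (2.77-fold, limma adjusted p = 0.324) and 0.89 on slide 2 alone. Acsl4, whose enzyme activates arachidonate for re-esterification, differed by 0.35 ± 0.11 on its brightest probe and by 0.55 on the other. Pla2g6, a calcium-independent phospholipase gene, differed by 0.41 ± 0.13 on its brightest probe and by -0.17 on the other, and Pla2g2d by 0.39 ± 0.16.

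The receptor gene Ppara stood at 0.50, 0.60 and -0.37 in phenylbutazone, against 0.39, 0.57 and 0.72 in vehicle, a difference of -0.32 ± 0.27, and was lowest in phenylbutazone 3, without which the difference was -0.015. The 22 genes of PPAR alpha, its partners and targets were all tested, with 17 higher and 5 lower in phenylbutazone. Their median was 0.17, against 0.039 for all named genes. Against 11.7% of all named genes, 3 of the 22 had an unadjusted limma p under 0.05. Those were Cpt2 (0.51 ± 0.12), the mitochondrial carnitine palmitoyltransferase, and the peroxisomal thiolases Acaa1b (0.65 ± 0.18) and Acaa1a (0.48 ± 0.17), close paralogs of each other. Acot1, an acyl-CoA thioesterase gene, stood at 0.29 ± 0.14. Cyp4a1 and Cyp4a3, targets of the same receptor in rat liver, had differences of 0.30 and -0.73, opposite in sign. Of 8 tested genes of the HETE and EET targets 1 was higher and 7 were lower, with a median of -0.067. Among them Kcnma1, the potassium channel gene of smooth muscle, stood at -0.56 ± 0.22 on its brightest probe. That probe stood at -0.80 without vehicle 3 and -0.076 on slide 2 alone, and the other tested probe at 0.80. By their brightest probes Slc9a3 (-0.10 ± 0.13), Trpc6 (-0.13 ± 0.20) and Ace (-0.25 ± 0.41) were nearer 0. The probes of Slc9a3 ran from -0.74 to -0.038, however. The gene of that list that was not tested, the HETE receptor gene Gpr75, was well above background on 0 of 6 arrays. On the cyclooxygenase side Ptgs1 differed by -0.22 ± 0.15, and Ptgs2 was measured on 1 of 3 phenylbutazone and 3 of 3 vehicle arrays.

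**Figure D5:**
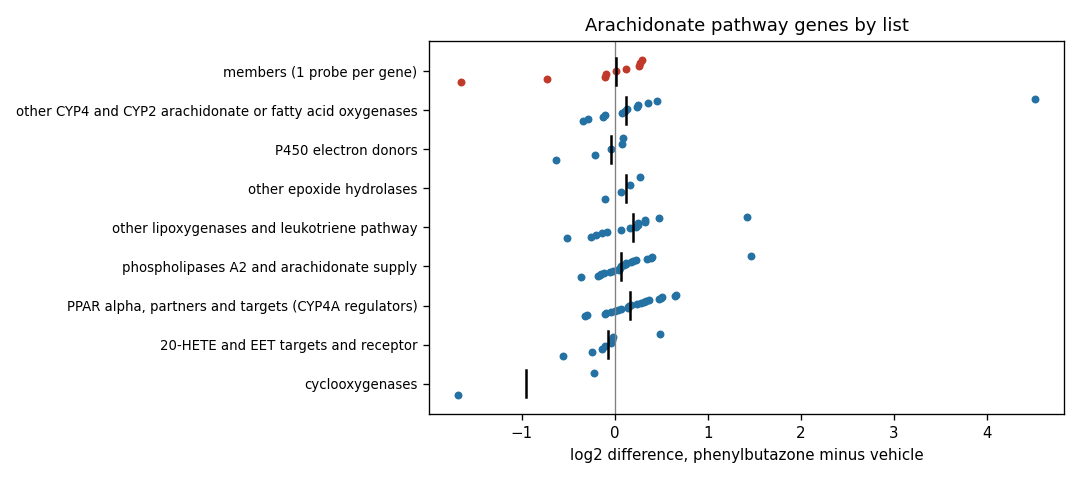
Log2 difference between phenylbutazone and vehicle for each tested gene of the 9 described genes (red) and of the 8 other lists (blue), with the median of each list as a black bar and 1 point per gene. Ephx2 at -1.65 and Cyp4a3 at -0.73 lie left of the other red points, and the far point of the oxygenase list, at 4.52, is Cyp2c24, which was at background on 3 arrays.

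Of the 9 tested genes 3 ranged over at least 1 log2 unit across the 6 arrays, and for these the 3 most similar of 12146 named genes were listed by Pearson correlation, a description over 6 points that were picked as the highest of many. Ephx2 was closest to Nfil3 (r = 0.996), Oxgr1 (0.994) and Tuba3b (0.991). Nfil3, a repressor gene of the basic leucine zipper family, stood at -0.06, -0.58 and -1.50 in phenylbutazone, against -0.14, -0.29 and 0.18 in vehicle, so that the same array, phenylbutazone 3, was lowest and vehicle 3 highest. Its range of 1.68 log2 units is narrower than the 4.66 of Ephx2. Cyp2j4 was closest to Sim2 (0.991), Rgn (0.989) and Fn1 (0.988). Rgn, the regucalcin gene, stood at 1.56, 2.55 and 3.22 in phenylbutazone, against 2.74, 2.68 and 1.28 in vehicle, again with phenylbutazone 1 and vehicle 3 low. Among the genes closest to Cyp4a3 were Rpl3l (0.965) and Fam241a (0.962). Fam241a stood at -1.21, -0.53 and -1.32 in phenylbutazone, against -0.49, -0.28 and -0.65 in vehicle, with phenylbutazone 1 and 3 below every vehicle array.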

How the data were processed

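Renal cortex RNA of 6 rats was labelled with Cy3 and hybridised to 1 one-colour Agilent array each, per the labels' protocols. Images were read with Agilent Feature Extraction 10.7, per the submitters' processing notes. The deposited scanner files hold the processed intensity of each spot, background-subtracted within the array and not normalized between arrays, per the file headers. The deposited value table holds a ratio per probe: against the scanner values it was the processed intensity over the 75th percentile of the array, with medians of 0.105, 0.106 and 0.107 in phenylbutazone and 0.110, 0.110 and 0.109 in vehicle, so its scale, centring and direction are known.

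Control spots (1439) and probes with an outlier mark on any array (40) were left out. Intensities were taken to log2, the 75th percentile of the array was subtracted, and 41006 probes were tested one by one, those well above background on 3 or more of the 6 arrays, with limma 3.58.1 in R 4.3.3 (lmFit, eBayes, two-sided, Benjamini-Hochberg, threshold 0.05). Accessions without version were matched to RefSeq genes of GRCr8 for names, which named 28206 of 61537 probes (45.8%). The build of the array design differs, so only promoter windows carry coordinates. The fit was tested on simulated data. The members and lists were chosen with earlier results of these data known. All members are named; of each other list the text names at most 4 genes, those of smallest unadjusted p by their brightest probe, plus Ppara, Por, Alox5ap, Ephx1, Ptgs1 and Ptgs2, and dim markers and the single untested target gene. Groups follow the labels, which call the 3 animals per group biological replicates. The number of arrays limits the precision. Alternatives were other scalings, normexp background correction (on the median spot signal), filters, slide, pairing and leaving out each array. For Cyp4a3, 1 gene of the pattern lists is not reported here.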

Additional observations from a re-analysis of the deposited data

How the results depend on the processing

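No probe of the described genes passed under any alternative run, with limma adjusted p values of 0.062 to 0.999. Of all 41006 probes 0 passed in the main setting (limma, 4606 at an unadjusted p under 0.05), 2 with normexp, and 1 each with quantile normalization, an intensity trend and slide as a random block. Leaving out 1 array gave 0 to 1041, the highest without vehicle 3, where treatment and slide cannot be told apart. Of the pathway list genes, 1 of 4 other epoxide hydrolases (Ephx1) and 1 of 8 HETE and EET targets (Kcnma1) passed without vehicle 3, and 0 under the other alternatives. With the replicate block 0 of 41006 probes and 0 of 15 member probes passed. Same-numbered animals did not deviate together (correlations of -0.024, 0.003 and -0.081), so the numbers do not pair them.

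Signs turned for small differences, and the cause was not tested. Cyp4a2 probe A_64_P019361 was -0.064 with normexp, -0.054 with quantile normalization, -0.060 with slide as a fixed block and on slide 2 alone, -0.036 with slide as a random block, and -0.014 to 0.046 with 1 array left out. Cyp4a2 probe A_44_P147020 was 0.041 when scaled to the median, 0.069 with normexp, and -0.17 to 0.24 with 1 array left out. Cyp4a8 probe A_42_P735495 was 0.031 with normexp and -0.17 to 0.030 with 1 array left out, and A_64_P040989 was -0.20 with slide as a fixed block and on slide 2 alone, -0.096 with slide as a random block, and -0.029 to 0.26 with 1 array left out. Cyp2c23 was -0.014 with quantile normalization. With 1 array left out the Cyp2j4 probes gave -0.16 to 0.56 (A_64_P056415), -0.29 to 0.34 (A_64_P048379) and -0.22 to 0.65 (A_42_P792497), and the ratio of Cyp2c23 to Cyp2j4 gave -0.55 to 0.34. The ratio of Cyp4a2 to Cyp4a8 was -0.095 with normexp. Dim probes such as that of Alox5 have no level, and 3 animals per group limit the precision.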
